A study of Homo sapiens with 6 samples.

Results

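The ubAPE1 line was compared with the wtAPE1 line in the absence of doxycycline, the drug that induces the transgenes. The comparison uses 2 of the 6 deposited columns, chosen by their labels, and 11619 of 15492 array rows, those whose mean level over the 6 columns reached the 25th percentile, 5.03 log2. All cells derive from HEK293, a human embryonic kidney line, carry a pcDNA-FRT construct and were grown with puromycin at 1 µg/ml. The vector line holds an empty construct, the wtAPE1 line expresses wild-type APE1 under tet-on control, and the line named ubAPE1 expresses the ubiquitin fusion of APE1 in the same way. Induced cultures received doxycycline at 2 µg/ml for 16 h, and uninduced cultures received none. Each column is the authors' mean of 3 biological replicates, so the replicate spread is not in the values and the uninduced difference carries no test. The labels do not say whether a line is 1 clone, so differences of clone and of construct cannot be told apart.

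APE1, encoded by APEX1, is the main endonuclease that cuts DNA at abasic sites during base excision repair, and it also acts as a redox regulator of transcription factors such as AP-1. Ubiquitin is a small protein whose attachment can send a protein to the proteasome or alter its location and partners. A tet-on promoter can leak, so the uninduced state is not necessarily free of the transgene product.

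Differences below are ubAPE1 minus wtAPE1 on the log2 scale, so a positive value means a higher level in the ubAPE1 line. The median row was 0.17 log2 higher in the ubAPE1 column as deposited, and this shift was subtracted from every uninduced difference. A row was called higher or lower when it lay at least 1.5-fold from the median row. The column medians over all rows were 6.28 (vector), 6.07 (wtAPE1) and 6.21 (ubAPE1) without doxycycline, and 6.23, 6.12 and 6.07 with it. Levels of different genes are not set against each other, because array rows differ in probe response.

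APEX1 was read first. Its level without doxycycline was 9.54 (vector), 9.50 (wtAPE1) and 9.82 (ubAPE1), and with doxycycline it was 9.66, 10.67 and 10.58. The uninduced columns lay close together and both induced transgenic columns stood above every other column. The uninduced difference of APEX1 was 0.15, or 1.11-fold, and it ranked 3719 of 11619 rows from the top. Its size depended on the processing. It was 0.33 as deposited, 0.43 with the trend with gene length described below removed, and 0.28 with length and level trends removed. UBB, a polyubiquitin gene, measured 12.13, 12.17 and 12.19 without doxycycline and 12.06, 12.05 and 12.26 with it, a difference of -0.15 without and 0.26 with the drug. The share of the APEX1 signal that comes from the transgene was not measured.

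The identity of the cells was checked against fixed markers. Of 13 kidney and epithelial markers, 10 were among the kept rows, among them KRT8 at 10.39 and 10.22 and KRT18 at 8.06 and 8.19 in the uninduced wtAPE1 and ubAPE1 columns, and the kidney factor PAX2 at 6.16 and 6.02. EPCAM, an epithelial adhesion protein, was at 5.12 and 5.30 in these columns against 8.03 in the vector line, and MAL2, an apical transport protein, at 4.20 and 4.03 against 8.72, so both transgenic lines stood apart from the vector line and close to each other. Of markers of other cell types, 4 of 8 for fibroblasts and smooth muscle, 3 of 7 for neurons, 2 of 6 for adrenal cells and 1 of 6 for blood were kept, and 0 of 4 for endothelium, of which 2 had a row. The neuronal NEFL, a neurofilament protein, was at 8.47 and 8.66 in these columns. Of the kept kidney and epithelial markers, 1 lay above and 9 below the median row in the ubAPE1 line, with a median difference of -0.30 and a range from -0.46 (CLDN3, a tight junction protein) to 0.01 (EPCAM). MAL2 and LRP2 passed the filter only through the vector columns, and without them 1 lay above and 7 below, again with a median of -0.30, or -0.22 with the level trend removed. The kept fibroblast, adrenal and blood markers lay below the median row as well (4, 2 and 1 genes, medians -0.27, -0.25 and -0.32), and the 3 neuronal markers above it. In RNA from whole cultures, fewer cells of a type and less RNA per cell cannot be told apart.

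Without doxycycline 117 rows were at least 1.5-fold higher in the ubAPE1 line (1.01% of rows) and 104 at least 1.5-fold lower (0.895%). Only 3 and 4 rows, respectively, passed 2-fold. On the columns as deposited, without subtracting the shift of 0.17, the split was 748 higher and 24 lower. Of all rows, 61.3% lay within 1.2-fold of the median row, and the spread over rows was 0.277 (SD, n = 11619 rows). The called row nearest the threshold lay at 0.59 on the higher side and -0.59 on the lower side, and the nearest uncalled rows at 0.58 and -0.58.

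LLPH, the highest row with 1 symbol, measured 6.75 (vector), 5.83 (wtAPE1) and 7.09 (ubAPE1) without doxycycline, and 6.43, 6.63 and 6.50 with it, and values of other genes follow this order of lines. The low value was that of the uninduced wtAPE1 column, and the difference was 1.08. SPCS3, a subunit of the signal peptidase complex, had 8.62, 7.55 and 8.68 without and 8.81, 8.22 and 7.89 with doxycycline. Here again the uninduced wtAPE1 column was the lowest of the 6, and the difference was 0.96.

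COX20, an assembly factor of cytochrome c oxidase, measured 7.10, 4.85 and 5.98 without doxycycline and 6.65, 5.35 and 5.46 with it. All transgenic columns were below both vector columns, and the uninduced ubAPE1 column was the highest of the transgenic ones, with a difference of 0.96. TPMT, which methylates thiopurine drugs, stood at 5.72, 4.53 and 5.58, and with doxycycline at 5.64, 4.49 and 4.44. The uninduced ubAPE1 column thus lay with the vector columns and the induced one with the wtAPE1 columns, and the uninduced difference was 0.88. TPMT reached the row filter only with both its vector columns and its high uninduced ubAPE1 column counted.

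TIGAR, a p53-inducible fructose bisphosphatase, differed from those in which column stood out. Its values were 6.32, 6.35 and 7.33 without doxycycline and 6.54, 6.76 and 6.74 with it, so the uninduced ubAPE1 column was the high one, at a difference of 0.81. CCNE2, the cyclin E2 that drives entry into S phase, was at 5.92, 5.37 and 6.29 without and 6.04, 5.85 and 5.83 with doxycycline, a difference of 0.75. The remaining genes among the 15 highest were FBXL21P (0.92), PMS2CL (0.87), TOR1AIP2 (0.86), LRIF1 (0.85), SDHC (0.84), SERINC1, YWHAZ, ZNF706 (each 0.81), LYRM7 and TMEM184C (each 0.79). YWHAZ encodes a 14-3-3 adaptor and LYRM7 an assembly factor of respiratory complex III. YWHAZ reached the row filter only with its vector columns counted. LYRM7, like TPMT, reached it only with both its vector columns and its high uninduced ubAPE1 column counted. ZNF706, COX20, TOR1AIP2 and LYRM7 had another kept row each, at -0.07, 0.23, 0.30 and 0.37, none of them called, so the rows of these genes disagreed. PMS2CL is a pseudogene that resembles the mismatch repair gene PMS2, and the array may not separate their transcripts.

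The genes lowest in the ubAPE1 line included several that are known from other tissues. CHRM4, the M4 muscarinic acetylcholine receptor, measured 4.49, 5.84 and 4.77 without doxycycline and 5.17, 4.71 and 5.33 with it. The uninduced wtAPE1 column was the high one, and the difference of -1.24 was the lowest of all kept rows. The row's mean, 5.05, reached the filter of 5.03 only through that column. TNFRSF13C, the receptor for the B cell survival factor BAFF, had 5.60, 6.37 and 5.52 without and 5.48, 5.86 and 6.19 with doxycycline, with the uninduced wtAPE1 column again highest and a difference of -1.02.

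RPL41, a protein of the large ribosomal subunit, was at 5.31, 5.20 and 4.25 without doxycycline and at 5.16, 5.21 and 5.37 with it. Its 5 other columns lay close together. The uninduced ubAPE1 column was low, near the 10th percentile of all values (4.09), and the difference was -1.12. GPR78, an orphan receptor, showed the same arrangement, with 5.85, 5.99 and 5.08 without and 5.62, 5.73 and 5.68 with doxycycline, and a difference of -1.08. PSME2, a subunit of the PA28 proteasome activator, measured 6.66, 7.15 and 6.49, then 6.82, 7.27 and 6.98 with the drug. The wtAPE1 column was the highest in both states, and the differences were -0.84 without and -0.24 with doxycycline.

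The other genes among the 15 lowest were HPD, an enzyme of tyrosine breakdown (-0.99), CYTL1 (-0.94), SMPDL3B (-0.87), TOMM7, a subunit of the mitochondrial import pore (-0.87), and the tachykinin gene TAC4 (-0.85). They also included the histone gene H2BC14 (-0.81), UQCRQ, a subunit of complex III (-0.81), SPMIP9 (-0.80), NCR2, a receptor of natural killer cells (-0.79), and BHLHA15, a transcription factor of secretory cells (-0.78). TAC4, like CHRM4, reached the row filter only through its high uninduced wtAPE1 column. Apart from UQCRQ and PSME2, the levels of these 15 genes in the uninduced wtAPE1 column lay between 5.20 and 6.50, where the median of kept rows was 6.56. The median level over the 6 columns was 5.84 for the 104 lower rows, 6.83 for the 117 higher rows and 6.67 for all kept rows.

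**Figure D1:**
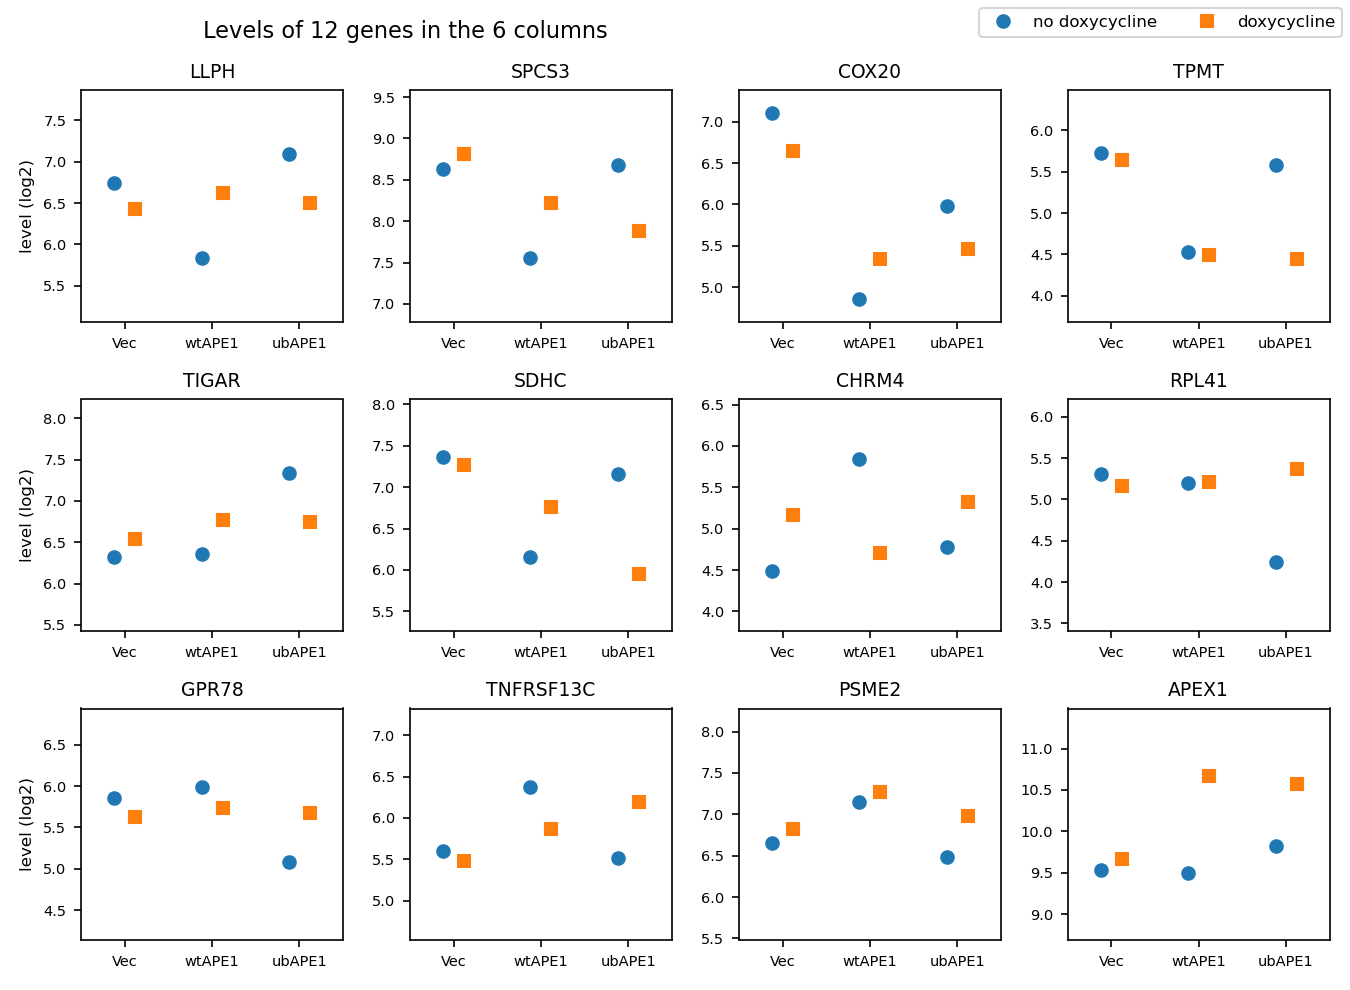
Levels (log2) of 12 genes in the 6 columns, with the vector, wtAPE1 and ubAPE1 lines on the x axis, uninduced columns as circles and induced columns as squares; each point is 1 averaged column without an error. In LLPH, SPCS3 and CHRM4 the uninduced wtAPE1 column is the extreme one, in TIGAR, RPL41 and GPR78 it is the uninduced ubAPE1 column, and APEX1 is high in the 2 induced transgenic columns.

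Both transgenic columns can be set beside the uninduced vector column, which the 2 resulting differences share. Over the 117 higher rows the median was -0.47 for wtAPE1 minus vector and 0.19 for ubAPE1 minus vector. Over the 104 lower rows these medians were 0.44 and -0.22. In both sets the wtAPE1 column lay farther from the vector column than the ubAPE1 column did, by median. SDHC was at 7.37 (vector), 6.16 (wtAPE1) and 7.16 (ubAPE1), an example of this arrangement.

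The difference between the lines was then read in the induced columns, which share no column with the uninduced difference. With doxycycline 20 rows were at least 1.5-fold higher in the ubAPE1 line (0.172%) and 31 at least 1.5-fold lower (0.267%), and the SD over rows was 0.172. Of the 117 rows higher without doxycycline, 14 kept their sign with it and 103 had the opposite sign, with a median of -0.21. Of the 104 lower rows, 29 kept their sign and 75 had the opposite sign, with a median of 0.10. Across the 11619 rows, which are not independent replicates and share the platform and each line's probes, the 2 differences had a Pearson r of -0.48. It was -0.42 over the 9647 rows with a gene length after the length trend was removed from both differences.

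Of the 15 highest genes, 5 had the same sign in both states and 10 the opposite sign, and the same counts held for the 15 lowest. SDHC, the membrane anchor of respiratory complex II, went from 0.84 without doxycycline to -0.76 with it. Its values with doxycycline were 7.27, 6.76 and 5.95, so the induced ubAPE1 column was the lowest of the 6 and the uninduced one was near the vector columns. In all, 13 rows were at least 1.5-fold apart in both states, 4 in the same direction and 9 in opposite directions.

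Among those in the same direction, 2 had 1 symbol, and both were named after their values were seen. FAM27E5 measured 5.69 (vector), 5.58 (wtAPE1) and 5.06 (ubAPE1) without doxycycline, and 5.48, 6.04 and 5.30 with it. The ubAPE1 column was the lowest within each state, and the difference was -0.69 in both. MGC34796 was at 5.85, 5.67 and 5.22 without and 5.41, 5.92 and 5.27 with doxycycline, with differences of -0.62 and -0.60. The ubAPE1 column was again the lowest within each state.

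**Figure D2:**
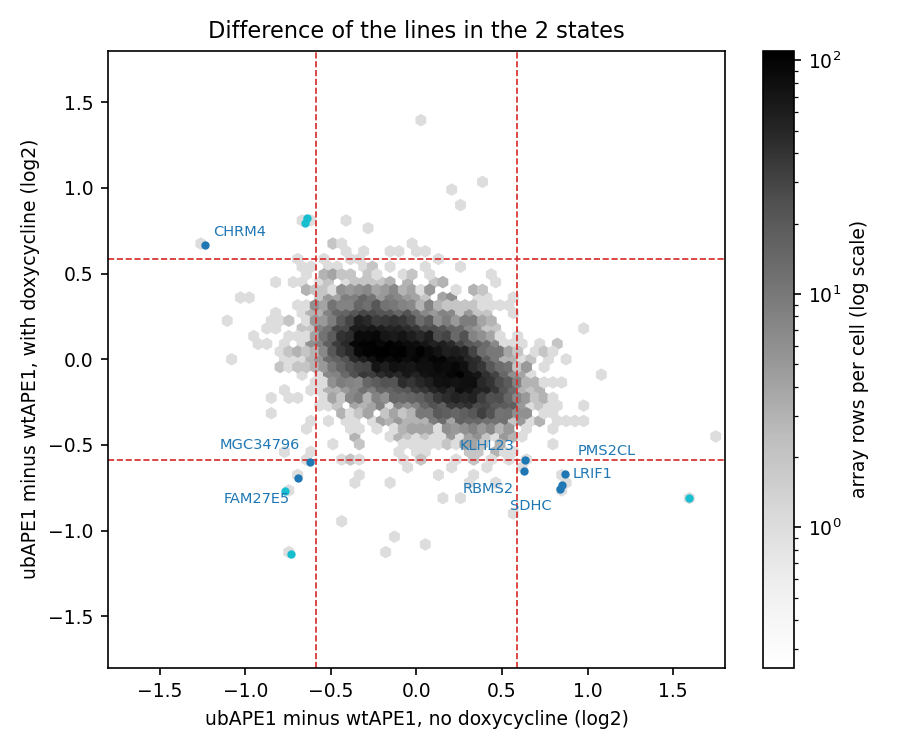
Difference between the lines (ubAPE1 minus wtAPE1, log2, relative to the median row) without doxycycline on the x axis and with doxycycline on the y axis, over 11619 rows; grey shading is the number of rows per cell on a log scale, dashed lines mark 1.5-fold, and coloured points are the 13 rows past it in both states (blue with 1 symbol, cyan with several). The cloud slopes downwards with r = -0.48, and the labelled SDHC, LRIF1, PMS2CL, RBMS2, KLHL23 and CHRM4 lie in the corners of opposite sign.

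A difference of the lines common to both states was tested with an additive limma fit of line and doxycycline over the 6 columns, in which the states stand in for replicates. With limma and Benjamini-Hochberg adjustment, 0 rows were higher and 0 lower at an adjusted p of 0.05 (0% of 11619 rows), and the smallest adjusted p was 0.0613. At an unadjusted limma p under 0.05 there were 100 rows. Among the genes named so far the smallest unadjusted limma p was that of FAM27E5 (0.000195, adjusted p = 0.541 by limma), followed by BHLHA15 (0.00031, adjusted p = 0.601 by limma). Their differences were lower in the ubAPE1 line in 2 of 2 states. Both genes were named for differences that also enter this fit, so these values are not independent support.

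The uninduced difference went with the genomic length of the gene. In the shortest of 5 equal classes of rows with a length (up to 8.90 kb) the median difference was -0.19, with 2 rows called higher and 48 lower. In the longest class (88.7 kb and more) the median was 0.15, with 22 higher and 4 lower, and the classes between had medians of -0.09, 0.05 and 0.13. With doxycycline the order was turned, from 0.08 in the shortest to -0.07 in the longest class. The median length was 37.9 kb for the higher rows, 5.72 kb for the lower rows and 28.8 kb for all kept rows.

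Column by column, the shortest class lay 0.11 above the row means in the uninduced wtAPE1 column and 0.09 below them in the uninduced ubAPE1 column (-0.09), while the uninduced vector column was at -0.05. In the longest class these columns were at -0.08, 0.05 and 0.05. The induced vector, wtAPE1 and ubAPE1 columns were at -0.08, 0.02 and 0.10 in the shortest class and at 0.11, -0.03 and -0.12 in the longest. The uninduced wtAPE1 and the induced ubAPE1 columns thus had relatively more signal in short genes, and the uninduced ubAPE1 column and both vector columns relatively less. The difference also went with the level, from a median of -0.17 in the lowest to 0.12 in the highest of 5 equal classes of mean level. The part of length and level in the differences of single genes was not tested, but subtracting the median within 20 length bins lowered the SD over rows with a length from 0.276 to 0.253, and subtracting the level trend as well lowered it to 0.239.

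**Figure D3:**
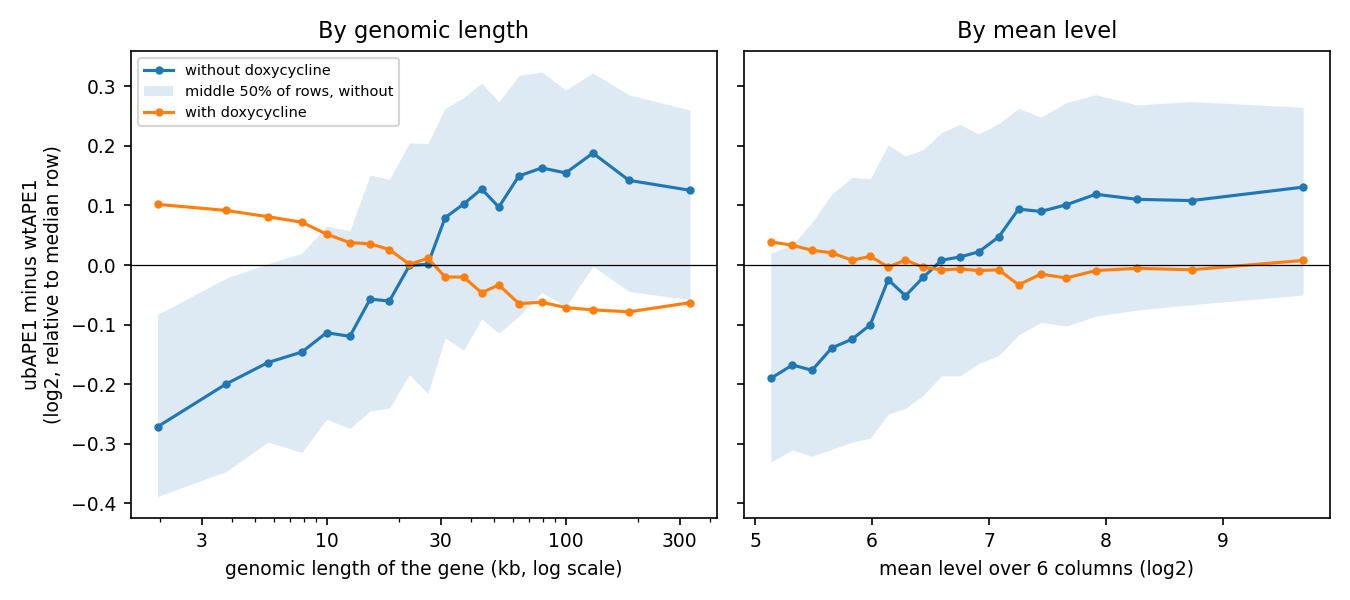
Median difference between the lines (ubAPE1 minus wtAPE1, log2, relative to the median row) in 20 equally filled bins of genomic length (left, kb, log axis) and of mean level (right, log2); blue without doxycycline with the middle 50% of rows shaded, orange with doxycycline. Without doxycycline short genes lie below 0 and long genes above, and the length curve with doxycycline runs the other way.

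Gene lists were described by the count of measured genes on each side of the median row. Over all 9569 genes the counts were 4827 above and 4741 below, with 98 called higher and 78 lower. At that share a short list would hold few called genes or none, so a list without a called gene says little. Of the lists with at least 10 measured genes, mitosis had the highest median, 0.33. Of 28 measured mitosis genes 25 lay above the median row and 3 below, and 1 was called higher, KIF11, the kinesin that separates the spindle poles. With the length trend removed 27 of 28 lay above and the median was 0.27, but KIF11 was at 0.45 and no longer called. The median was 0.20 with the level trend removed as well. With doxycycline 5 lay above and 23 below, and the median was -0.21.

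KIF11 measured 7.29 (vector), 6.61 (wtAPE1) and 7.38 (ubAPE1) without doxycycline, and 7.14, 7.10 and 6.74 with it. The uninduced wtAPE1 column was the lowest, and the difference was 0.60 without and -0.30 with the drug. HMMR, a spindle and hyaluronan-binding protein named after its values were seen, had 6.62, 5.82 and 6.56 without and 6.53, 5.82 and 5.49 with doxycycline. Its uninduced ubAPE1 column lay with the vector columns and the difference was 0.57. CDK1, the kinase that drives entry into mitosis, had a difference of 0.51, and CCNB1 and CCNB2, the B-type cyclins that activate it, 0.24 and 0.39. The 3 members below the median row were UBE2C (-0.23), AURKB (-0.16) and CENPA (-0.11).

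Promoters of mitosis genes are known for CCAAT boxes, bound by NF-Y, together with a cell cycle homology region (CHR), while promoters of H2B histone genes carry an octamer bound by OCT1. The sequences below are from mitosis genes, which lay above the median row, and from histone genes described after them, which lay below it. They are RefSeq sequences of GRCh38.p14 from 220 bases before to 30 after the transcription start, with capitals for CCAAT, for the CHR letters TTTGAA and for the octamer ATTTGCAT on either strand. The intervals are chr10:92592910-92593159 (KIF11), chr5:163460412-163460661 (HMMR), chr6:27814802-27815051 (H2BC14) and chr6:27893205-27893454 (H2BC17), all on the plus strand.
KIF11: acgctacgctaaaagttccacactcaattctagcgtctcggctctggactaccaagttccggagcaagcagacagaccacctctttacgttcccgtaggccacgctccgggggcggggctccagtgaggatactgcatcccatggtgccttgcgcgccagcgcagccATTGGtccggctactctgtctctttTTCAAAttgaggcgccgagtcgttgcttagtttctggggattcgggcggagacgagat
HMMR: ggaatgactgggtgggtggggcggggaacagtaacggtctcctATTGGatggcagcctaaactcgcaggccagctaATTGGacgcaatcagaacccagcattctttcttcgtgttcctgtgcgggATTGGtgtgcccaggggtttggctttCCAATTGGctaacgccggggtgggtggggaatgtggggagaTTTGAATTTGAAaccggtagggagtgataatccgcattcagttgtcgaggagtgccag
H2BC14: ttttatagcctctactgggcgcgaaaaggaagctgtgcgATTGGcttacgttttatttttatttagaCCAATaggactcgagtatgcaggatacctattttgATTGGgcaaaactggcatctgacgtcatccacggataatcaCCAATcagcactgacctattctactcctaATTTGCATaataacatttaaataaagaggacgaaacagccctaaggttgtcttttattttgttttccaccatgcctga
H2BC17: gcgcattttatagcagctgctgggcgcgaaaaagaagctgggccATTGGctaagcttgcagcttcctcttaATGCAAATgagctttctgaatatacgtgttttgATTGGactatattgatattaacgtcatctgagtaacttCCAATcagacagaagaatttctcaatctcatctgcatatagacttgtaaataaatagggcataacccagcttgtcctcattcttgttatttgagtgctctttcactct
The KIF11 window held 1 CCAAT and 1 TTTGAA, and the HMMR window 5 and 2, while the H2BC14 and H2BC17 windows held 4 and 3 CCAAT, 1 octamer each and no TTTGAA. In the table of 27305 promoters, CCAAT was in 36.3%, TTTGAA in 15.4% and ATTTGCAT in 1.9% of windows of this length. Overlapping matches were each counted, such as the CCAAT matches at -69 and -66 on opposite strands of the HMMR window. Of 23 mitosis genes with a promoter in the table, 18 held CCAAT (78.3%) and 17 TTTGAA (73.9%). All 9 H2B genes of the histone list held CCAAT, 7 held the octamer (77.8%) and 3 held TTTGAA. A match describes the letters and not a bound site.

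Genes of DNA replication and nucleotide supply lay above the median row in 31 of 36 cases, with a median of 0.20 that was 0.12 with the level trend removed and 0.10 with length and level trends removed. The called members were CCNE2 and PRIM2, a primase subunit, the latter at 6.40, 5.86 and 6.76 without doxycycline and 6.70, 6.28 and 5.87 with it. The uninduced ubAPE1 column was the highest uninduced value for PRIM2 and the difference was 0.72. Of 19 genes of homologous recombination and the Fanconi pathway, 14 lay above and 5 below with a median of 0.21, which was 0.07 after removal of the length trend. BRIP1, a helicase of that pathway, had 0.58 and was not called.

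Base excision repair genes, the pathway of APE1, had 12 of 18 members above the median row and none called, with a median of 0.11 that was 0.0363 with length and level trends removed. The DNA glycosylases, which remove damaged bases, had 4 above and 4 below, from -0.35 in MPG to 0.42 in MBD4. MPG measured 7.57, 7.53 and 7.35 without doxycycline, and MBD4 5.92, 5.47 and 6.06. The uninduced ubAPE1 column was the lowest of the uninduced values for MPG and the highest for MBD4. Of the endonucleases, polymerases, ligases and their partners, 8 of 10 lay above, among them PARP1 (0.32) and POLB (0.31), the gap-filling polymerase, while POLL (-0.21) and LIG1 (-0.05) lay below. With doxycycline the median of this group was -0.06, and the whole list had 4 above and 14 below. With the length trend removed the whole list had 10 above and 8 below without the drug.

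Genes of ubiquitin, its enzymes and p53 control had 12 of 16 members above and none called. The median was 0.20, or 0.05 with length and level trends removed. All 6 ligases of the list lay above, with a median of 0.38, led by the N-degron ligase UBR1 at 0.49. With the length trend removed UBR4 lay below, at -0.02. The other ligases then lay above, from 0.06 (MDM2) to 0.35 (UBR1). With doxycycline, and the trend kept, each ligase of the list lay below, with a median of -0.15. The whole list had 4 above and 12 below with the drug. UBR1 measured 6.40, 5.81 and 6.47 without doxycycline and 6.42, 6.01 and 5.87 with it, so the uninduced wtAPE1 column was the lowest. MDM2, the ligase of p53, had 0.18. The deubiquitinases were divided, with 4 above, including USP47 (0.49) and USP14 (0.48), and 3 below, with UCHL3 at -0.20. Of the p53 targets 11 lay above and 10 below, and TIGAR was the called member.

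Of 25 proteasome subunits 23 lay above the median row and 2 below, none was called, and the median was 0.22, or 0.12 with length and level trends removed. The core particle had 13 of 13 above and the regulatory particle 10 of 12, with ADRM1 (-0.25) and PSMD4 (-0.18) below. PSMA5, a core subunit, measured 8.48, 8.49 and 9.07 without doxycycline and 8.73, 8.51 and 8.41 with it, and the uninduced ubAPE1 column was the highest. Its difference was 0.41. With doxycycline 12 subunits lay above and 13 below. PSME2, of the separate PA28 activator, was among the 15 lowest genes.

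The genes of protein synthesis differed among themselves, but less so with length and level trends removed. Of 18 cytosolic aminoacyl-tRNA synthetases 15 lay above with a median of 0.25, led by NARS1 (0.57), and of 29 translation initiation factors 25 lay above with a median of 0.18. No member of either list was called. With length and level trends removed these medians were 0.08 and 0.06. Cytosolic ribosomal proteins had 8 above and 17 below, with RPL41 called lower and a median of -0.14 that turned to 0.03 on the columns as deposited and to 0.01 with the length trend removed. Mitochondrial ribosomal proteins had 35 above and 30 below, and 46 above and 19 below with the length trend removed. With both trends removed the median was 0.07 for mitochondrial and -0.04 for cytosolic ribosomal proteins.

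The nuclear genes of the respiratory chain lay mostly below the median row, 29 of 43, with a median of -0.14 that turned to 0.03 on the columns as deposited. Complex I had 7 above and 11 below, complexes II to IV 5 above and 11 below, and the ATP synthase 2 above and 7 below. UQCRQ measured 9.16, 9.35 and 8.71 without doxycycline and 8.60, 8.50 and 8.68 with it. COX7B, a subunit of cytochrome c oxidase, had 10.45, 10.61 and 10.19 without and 9.80, 10.43 and 10.38 with doxycycline, at a difference of -0.59. For both genes the uninduced wtAPE1 column was the highest of the 6. SDHC was the called member on the other side. With the length trend removed the median was -0.07, and UQCRQ (-0.54) and COX7B (-0.45) were no longer called. With the level trend removed the median was -0.26, and with both removed -0.20. With doxycycline 34 lay above and 9 below.

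Replication-dependent histone genes, which are short and without introns, had 4 members above and 29 below, with a median of -0.19, but the median turned to 0.08 with the length trend removed, where 17 lay above and 15 below. Their median length was 0.49 kb. The called members were H2BC14, H4C1 (-0.70) and H2BC17 (-0.59), and none of them was called with the length trend removed (-0.54, -0.43 and -0.32). H4C1 measured 8.41, 8.54 and 8.01 without doxycycline and 7.92, 7.38 and 7.91 with it, so the uninduced ubAPE1 column was the lowest uninduced value and the induced wtAPE1 column the lowest of all. H2BC17 had 6.03, 6.22 and 5.80 without and 6.02, 6.13 and 6.40 with doxycycline, and the ubAPE1 line held both the lowest and the highest value. The array may not separate the transcripts of these near-identical genes.

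AP-1 subunits and other immediate early genes, some of which APE1 is known to regulate through its redox function, had 1 member above and 15 below, none called, with a median of -0.23. All 7 AP-1 subunits lay below. FOS measured 5.52, 5.41 and 5.17 without doxycycline and 5.39, 5.24 and 5.26 with it, at a difference of -0.42, and the 6 values lay close together. JUN had -0.09. The list's genes had a median length of 4.16 kb, and with the length trend removed 5 lay above and 11 below, with a median of -0.13. With doxycycline 13 lay above and 3 below.

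Among the other lists, zinc finger genes of the ZNF series had 125 of 207 members above and 82 below, with 7 called higher and 1 lower. Over all 9569 genes 98 were called higher and 78 lower. ZNF468 measured 5.65, 5.35 and 6.28 without doxycycline and 5.67, 6.06 and 5.99 with it, so the uninduced ubAPE1 column was the highest, at a difference of 0.76. Genes of cholesterol and fatty acid synthesis had 14 of 21 above, with MSMO1, a sterol demethylation enzyme, called higher at 0.68. P4HA1, a collagen prolyl hydroxylase, was the called member of the hypoxia targets (0.61), of which 9 lay above and 5 below. APC, the scaffold that limits β-catenin, was that of the Wnt genes (0.63), of which 13 lay on each side. With the length trend removed neither P4HA1 nor APC was called (each 0.45). The ATF4 targets had 15 above and 12 below. Of their stress regulators 7 of 8 lay below. Of a group of 10 mostly amino acid synthesis genes, which also held CHAC1, VLDLR and STC2, 8 lay above. With the length trend removed the regulators ATF4 (0.18), DDIT4 (0.14), CEBPB (0.02) and ATF5 (0.0015) turned above. TRIB3, PPP1R15A and NUPR1 stayed below (-0.26, -0.16 and -0.34). ASNS (-0.02), PHGDH (-0.07) and VLDLR (-0.01) then turned below. The whole list then had 16 above and 11 below. No gene was called in the 27 ATF4 targets, nor among the 11 NRF2 targets, the 15 glycolysis enzymes or the 19 HOX genes. At the share over all genes, lists of this size would hold few called members or none.

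**Figure D4:**
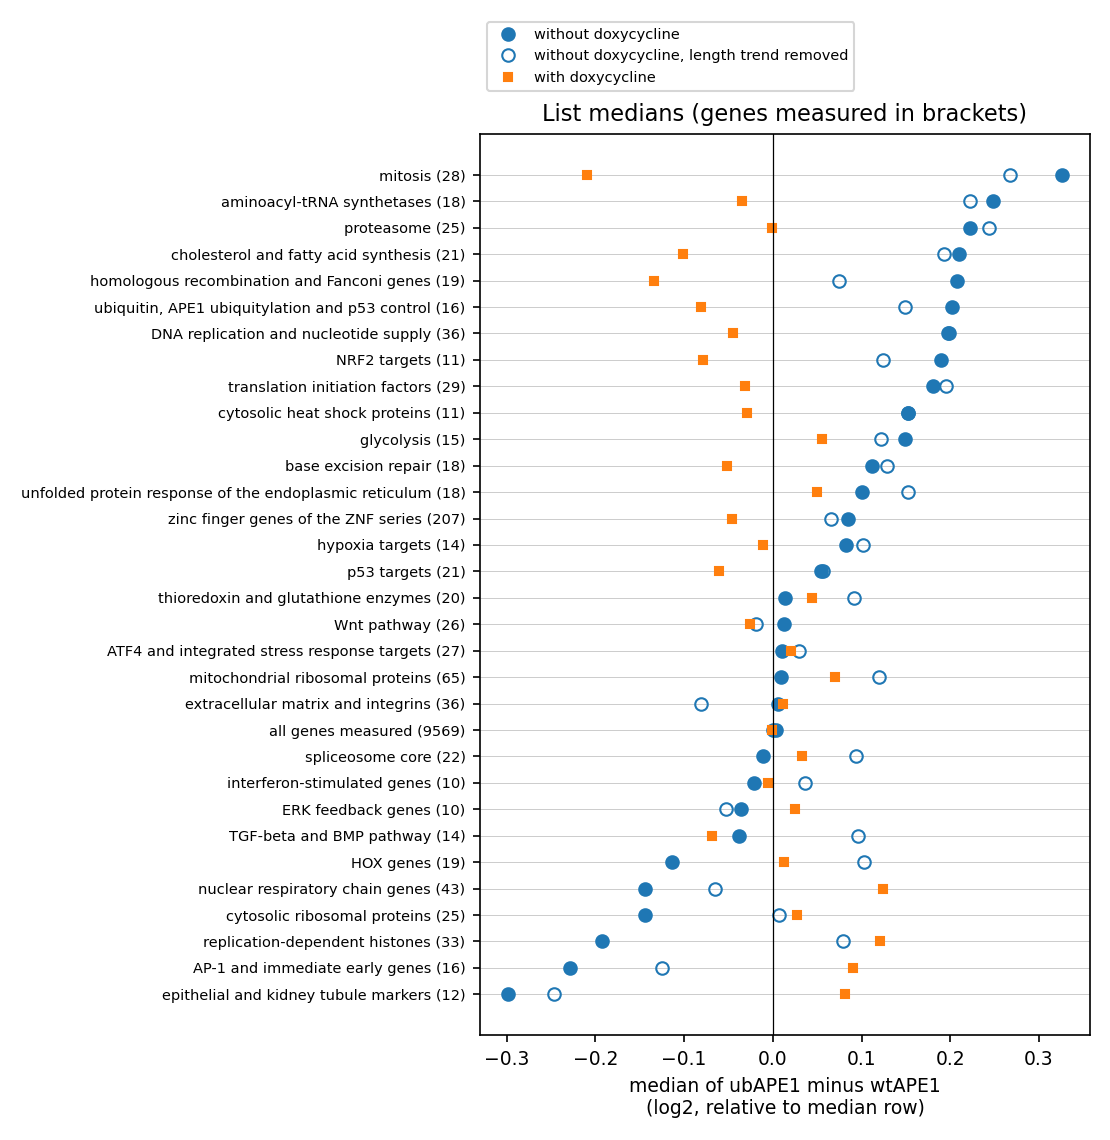
Median difference between the lines (ubAPE1 minus wtAPE1, log2, relative to the median row) for each gene list with at least 10 measured genes, with the number of measured genes in brackets; filled circles without doxycycline, open circles without doxycycline after the length trend was removed, squares with doxycycline. Of these lists, mitosis genes are highest at 0.33 and epithelial markers lowest at -0.30 without doxycycline, and both lie on the other side of 0 with it.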

How the data were processed

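Total RNA of 6 groups was measured on Affymetrix whole-transcript arrays. The deposited values are log2 levels per array row, the authors' mean of 3 biological replicates per group. That scale was inferred from the range of the numbers. How probes were summarised, normalized or filtered is not stated in the labels or the table, and is thus not given in the sources used here. Because hg 18 is the build in the submitters' processing notes, no coordinates were taken from the GRCh38.p14 gene table except those of its own promoters.

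Of 15492 rows, 12616 had 1 symbol in the platform annotation, 2031 had several and 845 none. Genes were named from 1-symbol rows alone. The gene table held the IDs of 12602 of them, and 0 symbols were updated. Of the 11619 kept rows, 9653 had 1 symbol and 9647 a length. Where 84 genes had several rows, lists used the row with the highest mean.

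The fit used limma 3.58.1 in R 4.3.3 (2 residual degrees of freedom, 68.2 prior, median residual SD 0.145), with each column centred. Its p-values measure evenness across the doxycycline states. On simulated data of 11619 rows it recovered 80% of rows changed 1.5-fold and 100% of those changed 2-fold. The simulated noise was independent and had the median residual SD in every row. Real rows differ in spread, and the line differences of the 2 states had an r of -0.48. The simulated shares thus do not tell how many real differences were missed. FAM27E5, at -0.69 in the fit with a standard error of 0.175, had an adjusted p of 0.541 by limma.

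The comparison, its gene lists and tests were chosen with earlier results of these data known. Named genes were APEX1 and UBB, the 15 highest and 15 lowest 1-symbol rows and, from each list, called members or otherwise the 2 largest differences, and some items of the rule are not reported here. Other members were chosen after their values were seen. Symbol patterns of 4 lists (histones, ribosomal proteins, initiation factors, small nucleolar RNAs) and 2 sets of symbols were corrected after the table was seen. The number of measurements per group, 1 averaged column, limits the precision throughout.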

Additional observations from a re-analysis of the deposited data

Results flagged for a closer look

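For 6 genes the lines differed by at least 1.5-fold in both doxycycline states but in opposite directions (ubAPE1 minus wtAPE1, log2, relative to the median row). CHRM4 was at -1.24 without and 0.67 with doxycycline, and its row reached the filter only through its high uninduced wtAPE1 column. The other 5 were positive without the drug and negative with it, namely SDHC (0.84 and -0.76), LRIF1 (0.85 and -0.73), PMS2CL (0.87 and -0.67), RBMS2 (0.63 and -0.65) and KLHL23 (0.63 and -0.59). KLHL23 had another kept row, at 0.34 without doxycycline and thus under 1.5-fold. Each value rests on 1 averaged column per group, and the difference between the states was not tested. The genes were picked out by these values, against a background of r = -0.48 between the states over all kept rows.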

How the results depend on the processing

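The number of higher rows was 315 with no row filter, 41 with a filter at the 50th percentile, 748 on the differences as deposited and 3 at 2-fold, against 117. The number of lower rows was 193 with no filter, 24 as deposited, 60 with length and level trends removed and 4 at 2-fold, against 104. Quantile normalization gave 154 and 92, removal of the length trend 100 and 71 (103 and 80 on the same rows with the trend kept) and removal of the level trend 170 and 91. In the limma fit 1 row was lower without the vector line (adjusted p = 0.0213 by limma), and the other alternatives gave 0, with 38 to 244 rows at an unadjusted limma p under 0.05.

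On the differences as deposited the list medians were 0.50 for mitosis (0.4984), 0.42 for aminoacyl-tRNA synthetases, 0.3950 for the proteasome, 0.37 for the ubiquitin list and for DNA replication, 0.28 for base excision repair, 0.0284 for the respiratory chain, -0.0197 for histones, -0.0567 for AP-1 and -0.13 for epithelial markers. With length and level trends removed they were 0.0495 (ubiquitin list), 0.0807 (synthetases), -0.0818 (AP-1), -0.0451 (histones), -0.12 (epithelial markers), 0.0363 (base excision repair), 0.12 (proteasome), 0.10 (DNA replication), 0.20 (mitosis) and -0.20 (respiratory chain). The histone median was 0.0796 with the length trend removed, and the epithelial median -0.15 with the level trend removed. Removal of the level trend, alone or with length, the count on the same rows and the filter on transgenic columns for markers were chosen after seeing the data.

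Of 48 named genes past 1.5-fold, all 48 kept their direction under every setting that included them (19 of 19 at the 50th percentile filter), and 36 stayed past 1.5-fold with the length trend removed, 35 with both trends removed and 43 as deposited. The genes were chosen for lying past 1.5-fold. The shift of 0.17 and the medians of the length bins, from -0.27 to 0.19, are smaller than that. A change of direction was thus hardly possible there, and the kept direction is no measure of robustness. Each group has 1 averaged column, so its replicate spread is unknown, and no replicate numbers pair the columns. The additive limma fit pairs the lines within each doxycycline state. Signal over background could not be judged from these values.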
